A study of Mus musculus with 20 samples.

Results

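The TCRα chain of CD8 T cells is assembled from a V gene and a J gene, and the TRAJ genes are described here along their locus, from the 5′ end nearest the V genes (high numbers) to the 3′ end (low numbers). Members were all TRAJ genes except TRAJ7, TRAJ9, TRAJ15 and TRAJ23, counted in in-frame clones by the J gene listed for each clone. Of 43 TRAJ genes that held an in-frame clone, 39 were members. They were used by 169534 of 197526 in-frame clonotypes, which was 84.2% to 87.6% of the clonotypes of each mouse. A clonotype is a combination of V gene, J gene and CDR3 amino acid sequence, and each was counted once per mouse. Clone size and RNA content therefore do not weight the usage, though they can bear on whether a clonotype is detected.

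The study asked how the exchange of proteasome types between thymic cells shapes the selection of CD8 T cells. The TCR libraries came from 4 genotypes, all on the C57BL/6 background, and from male mice 9 to 12 weeks old. WT mice carry both β5t and β5i. β5i-KO mice lack β5i, the catalytic subunit of the immunoproteasome encoded by Psmb8, and β5t-KO mice lack β5t, the catalytic subunit of the thymoproteasome encoded by Psmb11 and normally made by cortical thymic epithelial cells. BIT mice carry the Psmb11 sequence at the start of Psmb8, so that cells that would make β5i make β5t and no β5i. The Psmb8 locus drives the inserted β5t, also in haematopoietic cells. The labels list 5 mice per genotype, and 17 of the 20 mice were used: WT 1 to 4, β5i-KO 1 to 5, β5t-KO 1 to 4 and BIT 1, 2, 4 and 5. β5t-KO replicate 5 (24 in-frame clonotypes), BIT replicate 3 (455 in-frame clonotypes) and WT replicate 5 (no TCRα table here) were left out by the rule.

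TCRα rearrangement proceeds stepwise. The first joins use V genes near the J cluster and J genes at its 5′ end, and a thymocyte that is not yet selected can replace its join by further joins of more distant V genes to J genes farther 3′, until positive selection or death ends the process. The position of the J gene in a mature CD8 T cell is therefore commonly read as a record of how far along the locus rearrangement went before it stopped. Invariant TCRα chains use fixed J genes, TRAJ18 in NKT cells and TRAJ33 in MAIT cells.

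The 39 members lie in numerical order on chromosome 14 of GRCm38 (RefSeq annotation), from TRAJ58 at chr14:54157280-54157342 to TRAJ2 at chr14:54217836-54217901, a span of 60.6 kb. RefSeq lists 60 TRAJ genes. Of the 17 without a clone in these libraries, 9 are annotated as pseudogenes and 8 as J segments. A J gene ends the CDR3 with a stretch of germline bases, which was read from clones whose alignment reached the first base of the J gene. The stretches of all 39 members matched the plus strand of chromosome 14 in GRCm39 once, 38 of them within the GENCODE gene of the same name and TRAJ12 with 1 base before it. The J genes whose usage differed between β5t-KO and WT mice are shown because the comparison turns on them, with the last CDR3 codon in capitals, where a conserved phenylalanine or tryptophan is usual. The 6 genes whose usage was higher in β5t-KO mice were TRAJ57 (chr14:54158507-54158569), TRAJ56 (chr14:54159263-54159325), TRAJ52 (chr14:54165316-54165381), TRAJ50 (chr14:54167590-54167652), TRAJ49 (chr14:54168686-54168744) and TRAJ27 (chr14:54192303-54192361).
TRAJ57: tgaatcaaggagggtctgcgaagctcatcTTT
TRAJ56: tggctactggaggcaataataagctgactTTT
TRAJ52: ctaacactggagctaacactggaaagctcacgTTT
TRAJ50: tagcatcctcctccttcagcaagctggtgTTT
TRAJ49: gaacacgggttaccagaacttctatTTT
TRAJ27: taacaccaatacaggcaaattaaccTTT
The 5 genes whose usage was lower in β5t-KO mice were TRAJ31 (chr14:54187895-54187951), TRAJ17 (chr14:54201775-54201837), TRAJ13 (chr14:54205741-54205797), TRAJ12 (chr14:54206552-54206610) and TRAJ6 (chr14:54212688-54212749).
TRAJ31: ggaatagcaataacagaatcttcTTT
TRAJ17: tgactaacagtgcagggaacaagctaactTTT
TRAJ13: caaattctgggacttaccagaggTTT
TRAJ12: ggggactggaggctataaagtggtcTTT
TRAJ6: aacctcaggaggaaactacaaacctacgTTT

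The 17 libraries held 1983032 to 8480570 TCRα reads and 14772 to 602397 unique molecules. In-frame clonotypes numbered 2454 to 16876 in WT, 4390 to 24843 in β5i-KO, 622 to 7656 in β5t-KO and 9362 to 26272 in BIT mice, so the range was lowest in β5t-KO mice. Clonotype numbers did not follow depth alone: β5t-KO replicate 2 had 622 clonotypes from 80581 molecules, and β5i-KO replicate 4 had 6608 from 14772. Values with all libraries thinned to 13519 molecules are given beside the results that they bear on. BIT replicate 4 stood apart from the other 3 BIT libraries, with more 3′ J genes, and results that rest on it are given with and without it. NKT-type joins (TRAV11 with TRAJ18) made up 0 to 7 clonotypes per mouse and MAIT-type joins (TRAV1 with TRAJ33) 0 to 8, at most 0.161% of a library, so clones of these other cells that the sort could hold were few. The libraries hold TCR transcripts alone, so neither Cd8a, Cd8b1, Psmb8 nor Psmb11 could be read, and the cell type and genotype labels were not checked against expression.

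All 39 members were found in every one of the 17 mice, and 35 had 5 or more clonotypes in each mouse. The fewest in any mouse was 1, for TRAJ35. Usage was uneven along the locus, and the 5 most used members lay between TRAJ31 and TRAJ21. TRAJ22 was the most used member, at 6.08% ± 0.64 of in-frame clonotypes (SD, n = 17). TRAJ26 (4.63% ± 0.32), TRAJ30 (4.57% ± 0.453), TRAJ31 (3.99% ± 0.396) and TRAJ21 (3.46% ± 0.248) followed, and TRAJ26 and TRAJ30 differed by less than their spread between mice. TRAJ49, nearer the 5′ end, was level with TRAJ21 (3.45% ± 0.43), and TRAJ12, nearer the 3′ end, was at 3.21% ± 0.508. Of the genes left out as members, TRAJ23 (4.47% ± 0.257) and TRAJ15 (3.82% ± 0.37) were used more than TRAJ21. The 5 least used members were TRAJ35 (0.49% ± 0.132), TRAJ2 (0.761% ± 0.38), TRAJ28 (0.833% ± 0.133), TRAJ58 (1.01% ± 0.127) and TRAJ44 (1.04% ± 0.166), and the last 2 also differed by less than their spread. TRAJ58 and TRAJ2 are the outermost members at either end. The J genes of NKT and MAIT chains took 1.66% ± 0.163 (TRAJ18) and 2.92% ± 0.195 (TRAJ33). High and low usage alternated between neighbours, with TRAJ28 at 0.833% next to TRAJ27 at 3.05% ± 0.341 and TRAJ30 at 4.57%.

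**Figure D1:**
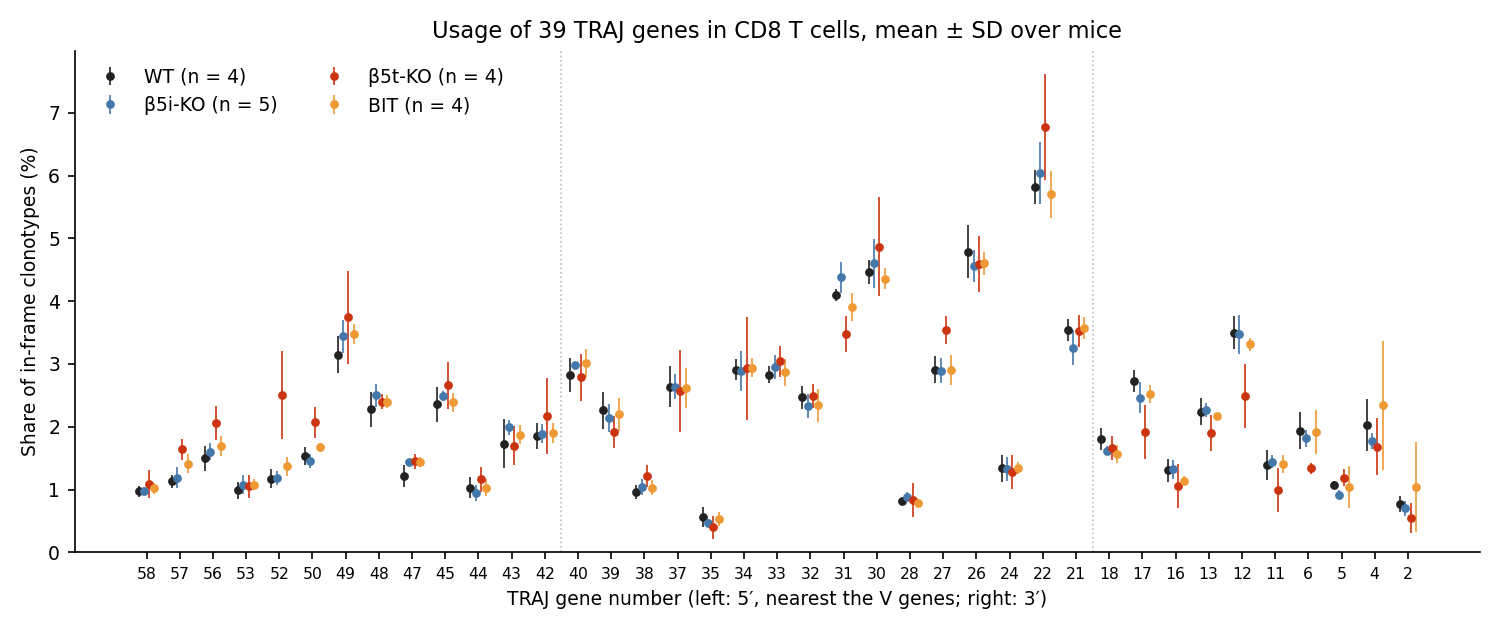
Share of in-frame clonotypes (percent, vertical axis) for each of the 39 TRAJ genes in order along the locus (horizontal axis), as mean ± SD over the mice of each genotype, with dotted lines at the borders of the 5′, middle and 3′ parts. TRAJ22 is the highest point in each genotype, and the β5t-KO points lie above the others at TRAJ57, TRAJ56, TRAJ52 and TRAJ50 and below them at TRAJ17, TRAJ12 and TRAJ6.

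The first comparison asked whether the loss of β5t changed which J genes CD8 T cells carry. In β5t-KO mice, usage rose for 6 members and fell for 5, as tested with edgeR's quasi-likelihood test over all 43 TRAJ genes at an adjusted p of 0.05. Over all 43 genes tested, 27.9% were called, 14% higher and 14% lower, so the members were called about as often as the whole table. The direction followed position. Of the 13 members from TRAJ58 to TRAJ42 (the 5′ part), 5 rose, 0 fell, and all 13 had a log2 fold change above 0, with a median of 0.21. Of the 10 members from TRAJ18 to TRAJ2 (the 3′ part), 0 rose, 4 fell, and 9 had a log2 fold change below 0, with a median of -0.34. In the middle part (16 members from TRAJ40 to TRAJ21), TRAJ27 rose, TRAJ31 fell, and the median was 0.05, against 0.04 over all 43 genes. Across the 39 members the log2 fold change went with the TRAJ number (Pearson's r 0.76, Spearman's rho 0.75), which is a description over genes of the same libraries, whose shares sum to a whole and are not independent. This trend was not particular to β5t-KO mice. Against the same WT mice, β5i-KO gave r 0.67 and rho 0.65 and BIT r 0.42 and rho 0.64, without a called member. For β5t-KO against β5i-KO mice r was 0.59 and rho 0.54.

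The largest change was that of TRAJ52. Its share of in-frame clonotypes was 1.1%, 1.11%, 1.4% and 1.07% in the 4 WT mice. It was 2.09%, 3.54%, 2.05% and 2.35% in the 4 β5t-KO mice, so that every β5t-KO mouse lay above every WT mouse and the highest value came from replicate 2, which had the fewest in-frame clonotypes of the 17 libraries (622, of which 22 used TRAJ52). The estimated change was a log2 fold change of 0.90 ± 0.14 (SE, edgeR adjusted p = 5.3e-05), and without β5t-KO replicate 2 or any other single mouse of these groups TRAJ52 was still called. In β5i-KO mice its share ran from 1% to 1.27%, within or close to the WT range. In BIT mice it was 1.51%, 1.32%, 1.17% and 1.48%. Each BIT mouse lay above every WT mouse except replicate 3, and 1.51% and 1.48% lay above that one too.

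The other 5′ genes that rose changed less. TRAJ57 took 0.978%, 1.18%, 1.23% and 1.13% of clonotypes in WT mice. In β5t-KO mice it took 1.69%, 1.77%, 1.7% and 1.38%, without overlap (log2 fold change 0.52 ± 0.13, edgeR adjusted p = 0.00493). TRAJ56 took 1.63%, 1.31%, 1.71% and 1.34% in WT mice and 2.03%, 2.41%, 2.06% and 1.75% in β5t-KO mice (log2 fold change 0.44 ± 0.12, edgeR adjusted p = 0.00553). Its lowest β5t-KO value was just above its highest WT value. TRAJ50 took 1.33% to 1.63% in WT and 1.84% to 2.41% in β5t-KO mice (log2 fold change 0.38 ± 0.10, edgeR adjusted p = 0.00559). TRAJ49, more used than its neighbours, took 2.9% to 3.55% in WT and 2.89% to 4.45% in β5t-KO mice (log2 fold change 0.38 ± 0.10, edgeR adjusted p = 0.00538). The TRAJ49 groups overlapped: β5t-KO replicates 1 and 3 were at 4.45% and 4.26%, replicates 2 and 4 at 3.38% and 2.89%, and the call was lost without replicate 1 or without replicate 3. TRAJ27, the member of the middle part that rose, took 2.69% to 3.2% in WT and 3.37% to 3.86% in β5t-KO mice (log2 fold change 0.25 ± 0.08, edgeR adjusted p = 0.0277). Its call held in 4 of the 8 fits that left out 1 mouse, and was lost without WT replicate 1 or 4 or β5t-KO replicate 1 or 3.

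Among the genes that fell, TRAJ12 took 3.46%, 3.8%, 3.17% and 3.55% of clonotypes in WT mice. In β5t-KO mice it took 2.9%, 1.77%, 2.53% and 2.77%, each below every WT mouse (log2 fold change -0.39 ± 0.09, edgeR adjusted p = 0.00493). TRAJ6 took 1.92%, 1.69%, 1.78% and 2.35% in WT mice and 1.37%, 1.29%, 1.25% and 1.44% in β5t-KO mice (log2 fold change -0.57 ± 0.15, edgeR adjusted p = 0.00538). It had the most negative estimate of the 43 genes, and its groups did not overlap. TRAJ17 took 2.61% to 3% in WT and 1.29% to 2.2% in β5t-KO mice (log2 fold change -0.40 ± 0.10, edgeR adjusted p = 0.00538). TRAJ31 took 4.02% to 4.2% in WT and 3.07% to 3.7% in β5t-KO mice (log2 fold change -0.22 ± 0.07, edgeR adjusted p = 0.0223). The TRAJ31 call was lost without TRAV12 clonotypes. Summed over mice, TRAJ31 took 4.71% of TRAV12 clonotypes in WT and 3.23% in β5t-KO mice, and 4.05% and 3% with TRAV13. With TRAV7 it took 3.91% and 3.91%, and with TRAV6 4.01% and 4.83%. TRAJ13 took 2.04% to 2.47% in WT and 1.61% to 2.17% in β5t-KO mice, with overlapping groups, and was called at the edge of the threshold (log2 fold change -0.26 ± 0.10, edgeR adjusted p = 0.0498). Without β5t-KO replicate 3 the members called numbered 6 in place of 11, and TRAJ49, TRAJ27, TRAJ31, TRAJ13 and TRAJ6 were those lost. TRAJ13 was called in 6 of 12 alternative settings, TRAJ31 in 8 of 12, and the other 9 genes in 10 or more of 12.

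**Figure D2:**
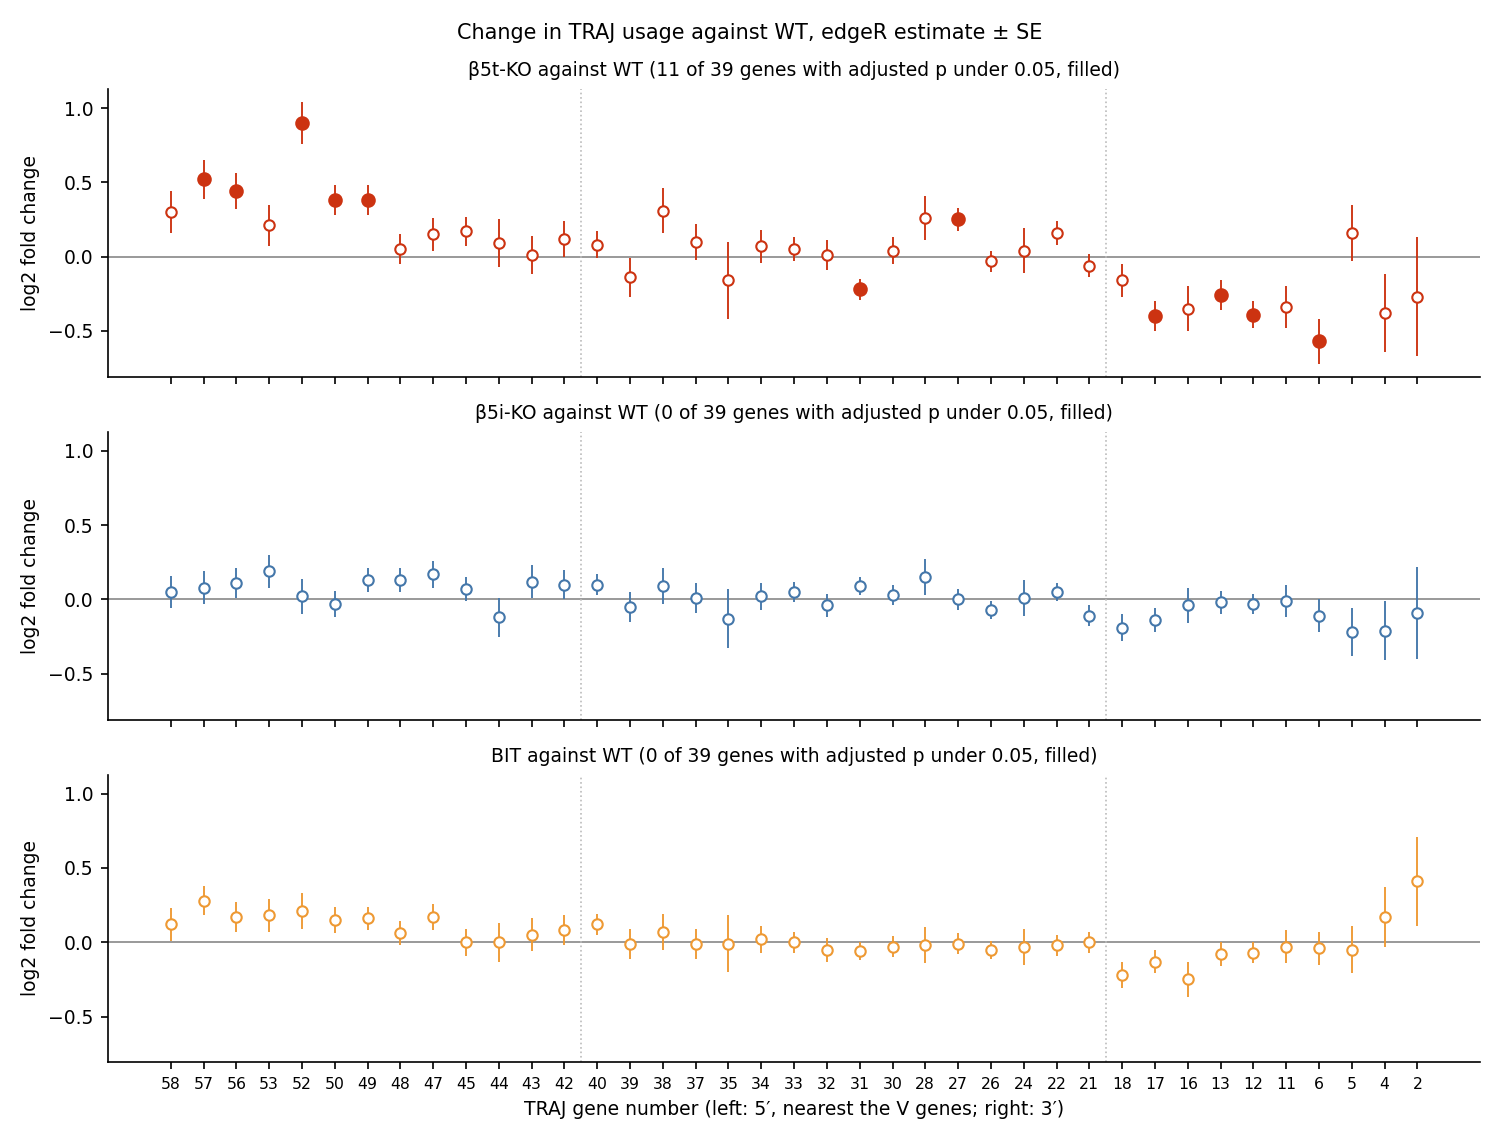
Log2 fold change against WT (vertical axis, edgeR estimate ± SE) for the 39 TRAJ genes in order along the locus (horizontal axis), 1 panel each for β5t-KO, β5i-KO and BIT mice, with filled points for an adjusted p under 0.05. In the β5t-KO panel 11 points are filled, those at the 5′ end above 0 and those at the 3′ end below 0, and in the other panels none is.

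**Figure D3:**
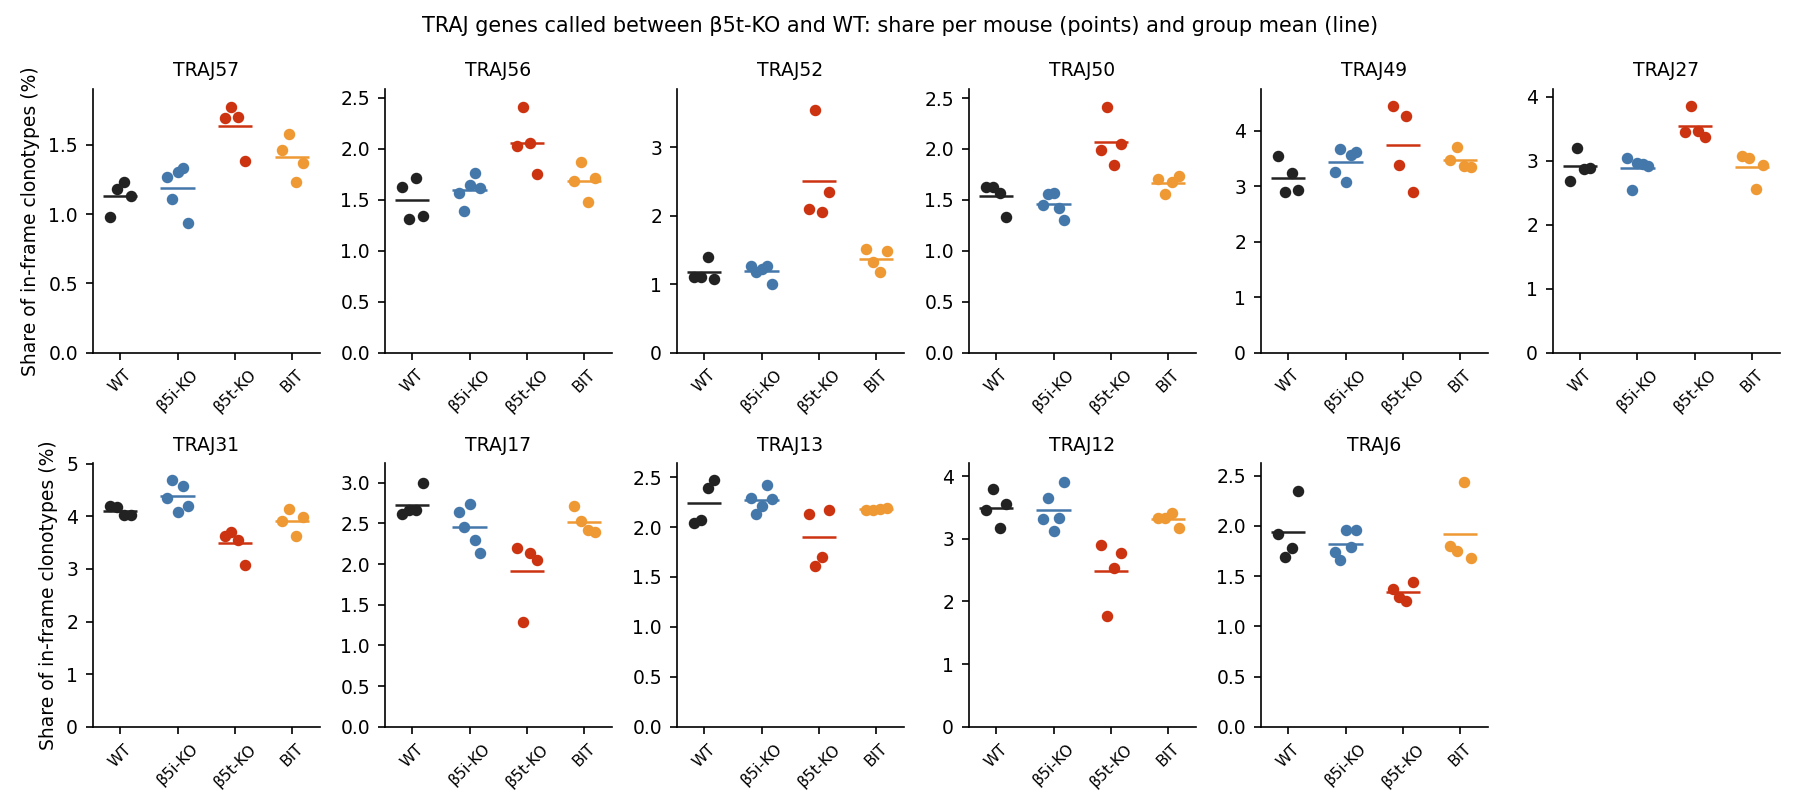
Share of in-frame clonotypes (percent, vertical axis from 0) in each of the 17 mice (points) with the mean of each genotype (line), for the 6 genes that rose and the 5 that fell in β5t-KO against WT mice. The β5t-KO points of TRAJ52 lie between 2.05% and 3.54%, above all points of the other genotypes.

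The same comparison was made against the other genotypes. Against β5i-KO mice, usage in β5t-KO mice rose for 6 members and fell for 3 (23.3% of the 43 genes called, 14% higher and 9.3% lower). These were TRAJ57, TRAJ56, TRAJ52, TRAJ50, TRAJ49 and TRAJ27 in one direction and TRAJ31, TRAJ12 and TRAJ6 in the other. TRAJ49 was at the edge of the threshold (edgeR adjusted p = 0.0483) and was called in 5 of 12 alternative settings and 5 of 9 fits that left out 1 mouse, and TRAJ56 in 9 of 12 and 5 of 9. Both comparisons use the same β5t-KO mice and are not independent of each other. TRAJ52 again had the largest estimate (log2 fold change 0.88 ± 0.13, edgeR adjusted p = 2.7e-05). TRAJ31 took 4.09% to 4.69% in β5i-KO mice, all above the 3.07% to 3.7% of β5t-KO mice (log2 fold change -0.31 ± 0.07, edgeR adjusted p = 0.00229). This call held in 11 of 12 alternative settings and was lost without TRAV12 clonotypes (edgeR adjusted p = 0.298). TRAJ50 took 1.3% to 1.57% in β5i-KO mice (log2 fold change 0.41 ± 0.10, edgeR adjusted p = 0.00479). Without β5t-KO replicate 3 the members called numbered 3, and without β5t-KO replicate 1 they numbered 4.

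BIT mice were compared with the other 3 genotypes. Against β5t-KO mice, 4 members were called (9.3% of the 43 genes called, 4.65% higher and 4.65% lower). TRAJ52 (log2 fold change -0.69 ± 0.13, edgeR adjusted p = 0.000775) and TRAJ27 (-0.26 ± 0.08, edgeR adjusted p = 0.0382) were lower in BIT mice. TRAJ6 (log2 fold change 0.53 ± 0.14, edgeR adjusted p = 0.0236) and TRAJ12 (0.32 ± 0.09, edgeR adjusted p = 0.0249) were higher in BIT mice. TRAJ27 ran from 2.56% to 3.07% and TRAJ12 from 3.17% to 3.41% in BIT mice, each without overlap with the β5t-KO mice. TRAJ6 was at 1.8%, 1.75%, 2.44% and 1.68%, with BIT replicate 4 highest. TRAJ52 was called in all 13 alternative settings, TRAJ6 and TRAJ12 in 9 of 13 each, and TRAJ27 in 8 of 13. The TRAJ27 call held in 3 of the 8 fits that left out 1 mouse, and was lost without β5t-KO replicate 1, 2 or 3 or BIT replicate 4 or 5. Without β5t-KO replicate 3 only TRAJ52 stayed called, and without β5t-KO replicate 1 the count was 2.

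No member passed the test between BIT and WT, between β5i-KO and WT or between BIT and β5i-KO mice (0% of the 43 genes called by edgeR in each, and 0 by DESeq2). At an unadjusted p under 0.05, edgeR gave 3 members for BIT against WT, 1 for β5i-KO against WT and 2 for BIT against β5i-KO. For BIT against WT these were TRAJ57 (log2 fold change 0.28 ± 0.10, adjusted p = 0.44), TRAJ18 (-0.22 ± 0.09, adjusted p = 0.44) and TRAJ16 (-0.25 ± 0.12, adjusted p = 0.44). With all libraries thinned to 13519 molecules, TRAJ57 (higher) and TRAJ18 (lower) passed the test for BIT against WT, 2 members in place of 0. TRAJ18 was also the gene for β5i-KO against WT (log2 fold change -0.19 ± 0.09, adjusted p = 0.723). For BIT against β5i-KO they were TRAJ31 (log2 fold change -0.16 ± 0.05, adjusted p = 0.312) and TRAJ50 (0.18 ± 0.08, adjusted p = 0.443). The estimates for BIT against WT were above 0 at 12 of 13 members of the 5′ part (median 0.15) and below 0 at 8 of 10 of the 3′ part (median -0.06), against a median of -0.01 over all 43 genes. Those for β5i-KO against WT were above 0 at 11 of 13 members of the 5′ part (median 0.10) and below 0 at all 10 of the 3′ part (median -0.10), against 0.01 over all genes. These comparisons share the WT mice, in which replicate 4 used the 3′ part more (24.9% of member clonotypes) than the other 3 (20.7% to 22%). In simulated counts for β5t-KO against WT with 43 genes, edgeR recovered 100% of changes of 2-fold, 90.5% of 1.5-fold and 37% of 1.25-fold. No recovery was simulated for the 3 comparisons without a call.

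The mean TRAJ number of a mouse, over the in-frame clonotypes of the members, gives position in 1 value. It was 30.7, 30.37, 31.03 and 29.4 in WT mice. It was 32.39, 32.9, 32.17 and 31.59 in β5t-KO mice, which lay above all 13 other mice used. BIT replicate 3, left out by the rule with 455 in-frame clonotypes, was at 31.65, above β5t-KO replicate 4. β5i-KO mice were at 30.79 to 31.08, and BIT mice at 31.41, 31.22, 29.24 and 31.4, where replicate 4 gave the low value. The mean over β5t-KO mice was 32.26 ± 0.542 (SD, n = 4), against 30.37 ± 0.707 in WT (n = 4), 30.92 ± 0.126 in β5i-KO (n = 5) and 30.81 ± 1.05 in BIT mice (n = 4). β5t-KO differed from β5i-KO mice by 1.35 (exact permutation test, two-sided, p = 0.00794, adjusted p = 0.0476 over 6 comparisons). With any single mouse of either group left out the difference was 1.14 to 1.57, and the adjusted p was 0.0571 to 0.0857. The smallest raw p of these smaller designs is 0.0286 or 0.0179, so they could hardly pass and say nothing about stability. It differed from WT mice by 1.89 and BIT from β5t-KO mice by -1.45, each at the lowest p that an exact permutation of 4 against 4 mice allows (0.0286, adjusted p = 0.0571). Although neither of these groups overlapped, neither comparison passed the threshold after adjustment. The difference from WT was 2.11 without WT replicate 3 and 1.56 without WT replicate 4 (exact permutation adjusted p = 0.0429 and 0.114). Without WT replicate 3 the raw p was still 0.0286. Its adjusted p was lower because the exact permutation p of β5i-KO against WT fell to 0.0179 in the same 6 comparisons. That pass therefore says nothing about stability. Without BIT replicate 4, BIT differed from β5t-KO mice by -0.923. The other 3 comparisons gave 0.542 for β5i-KO against WT (exact permutation adjusted p = 0.131; without WT replicate 3, 0.761 and 0.0429), 0.441 for BIT against WT (0.583) and -0.101 for BIT against β5i-KO (0.976). BIT against WT ran from 0.115 without WT replicate 4 to 0.967 without BIT replicate 4. Without BIT replicate 4, BIT against β5i-KO changed sign to 0.425 (exact permutation p = 0.0179, adjusted p = 0.0536).

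By part of the locus, the 5′ genes took 30.2%, 32.5%, 29% and 26.9% of member clonotypes in the 4 β5t-KO mice, and 23.1% to 26.4% in WT, 25.4% to 26.5% in β5i-KO and 25.3% to 27.1% in BIT mice. β5t-KO replicate 4 thus lay within the BIT range and just above the WT range. The 3′ genes took 14.6% to 18.2% in β5t-KO mice, and 20.7% to 24.9% in WT, 20.6% to 21.3% in β5i-KO and 19.7% to 26.3% in BIT mice, so the β5t-KO range lay below all others. The middle part took 52.1% to 54.8% in WT and 52.1% to 54.9% in β5t-KO mice, and it was lowest in BIT replicate 4 (48.4%). Thinned to 13519 molecules, the mean TRAJ number was 31.42 to 32.79 in β5t-KO and 29.17 to 30.71 in WT mice, a difference of 2.03 with the same exact permutation p of 0.0286. With TRAJ7, TRAJ9, TRAJ15 and TRAJ23 counted as well, the means fell to 29.23 to 30.42 in β5t-KO and 27.09 to 28.77 in WT mice, and the difference was 1.99.

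**Figure D4:**
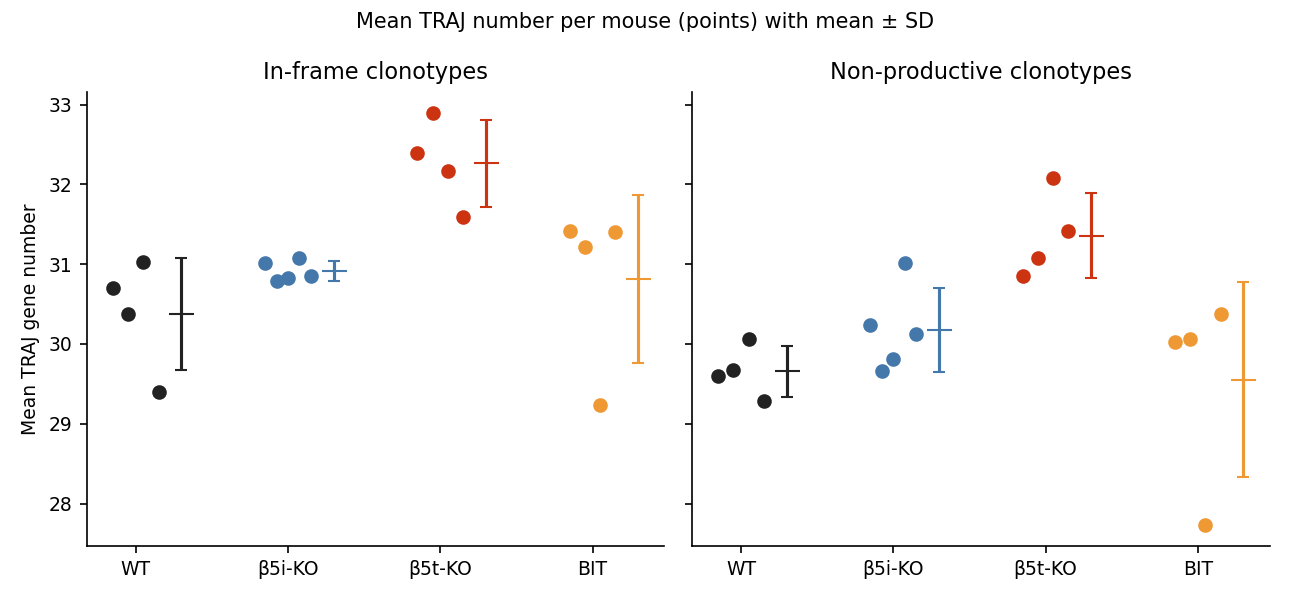
Mean TRAJ number (vertical axis) of each mouse (points), with mean ± SD of each genotype beside them, for in-frame clonotypes (left) and non-productive clonotypes (right). On the left the 4 β5t-KO mice lie between 31.59 and 32.9, above all others, and on both sides BIT replicate 4 is the lowest BIT mouse.

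Non-productive clonotypes, whose CDR3 is out of frame or holds a stop, were counted by the same steps as a comparison chosen after seeing the data. They numbered 60 (β5t-KO replicate 2) to 3184 per mouse. Their mean TRAJ number was 30.85, 31.08, 32.08 and 31.42 in β5t-KO mice and 29.6, 29.67, 30.06 and 29.29 in WT mice. The groups did not overlap and differed by 1.7 (exact permutation p = 0.0286, adjusted p = 0.0571). Among the 43 genes in these clonotypes, 4.65% were called by edgeR between β5t-KO and WT mice. TRAJ49 rose (log2 fold change 1.09 ± 0.34, adjusted p = 0.0486), and TRAJ16 fell (-0.96 ± 0.31, adjusted p = 0.0486). Against WT, TRAJ49 was at 0.68 ± 0.27 in β5i-KO and 0.64 ± 0.26 in BIT mice, and TRAJ16 at -0.35 ± 0.20 and -0.53 ± 0.20, without a call. Neither gene was called between β5t-KO mice and β5i-KO or BIT mice. For TRAJ52 the non-productive estimate was 0.27 ± 0.35 (edgeR adjusted p = 0.721), too imprecise to set against the in-frame change.

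Within each mouse, in-frame clonotypes had a higher mean TRAJ number than non-productive ones, by 0.898 ± 0.541 (SD, n = 17). The difference was above 0 in 17 of 17 mice, from 0.0576 to 1.82 (exact sign-flip permutation test, two-sided, p = 1.53e-05, the smallest that 17 mice can give). With nucleotide CDR3 it was above 0 in 15 of 17 mice (lowest -0.0582), and with at least 2 molecules per clonotype also in 15 of 17 (lowest -0.407). Single members differed in both directions. TRAJ30 made up 4.57% of in-frame and 2.18% ± 0.727 of non-productive clonotypes, and TRAJ22 6.08% and 4.01% ± 0.684, each higher in-frame in 17 of 17 mice. TRAJ32 made up 2.4% of in-frame and 8.08% ± 2.35 of non-productive clonotypes, and TRAJ17 2.41% and 3.78% ± 0.914, each higher in-frame in 0 of 17 mice. These 4 were chosen after their values were seen, as the members with all mice on the same side.

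Which J genes a V gene joined depended on where the V gene lies. TRAV17 to TRAV21 lie near the J genes (TRAV17 at chr14:53806639-53807115 on GRCm38) and TRAV1 and TRAV2 at the far end (TRAV1 at chr14:52427967-52428876). With TRAV17 to TRAV21, 75.3% of 6202 member clonotypes used the 5′ part of the J locus and 1.53% the 3′ part. With TRAV1 and TRAV2, 1.55% of 2004 clonotypes used the 5′ part and 29.2% the 3′ part. All other V genes together lay between, with 24.7% and 21.9% of 161328 clonotypes. They include 1424 clonotypes with TRDV and similar V genes, whose mean TRAJ number was 47.75 ± 1.65 (SD, n = 17). The mean TRAJ number with TRAV17 to TRAV21 was 46.18 to 47.75 in the 17 mice, and with TRAV1 and TRAV2 it was 20.44 to 27.13, so the ranges were far apart. The difference within a mouse was 22.2 ± 1.41 (SD, n = 17), above 0 in 17 of 17 mice (exact sign-flip permutation test, two-sided, p = 1.53e-05, the smallest that 17 mice can give).

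**Figure D5:**
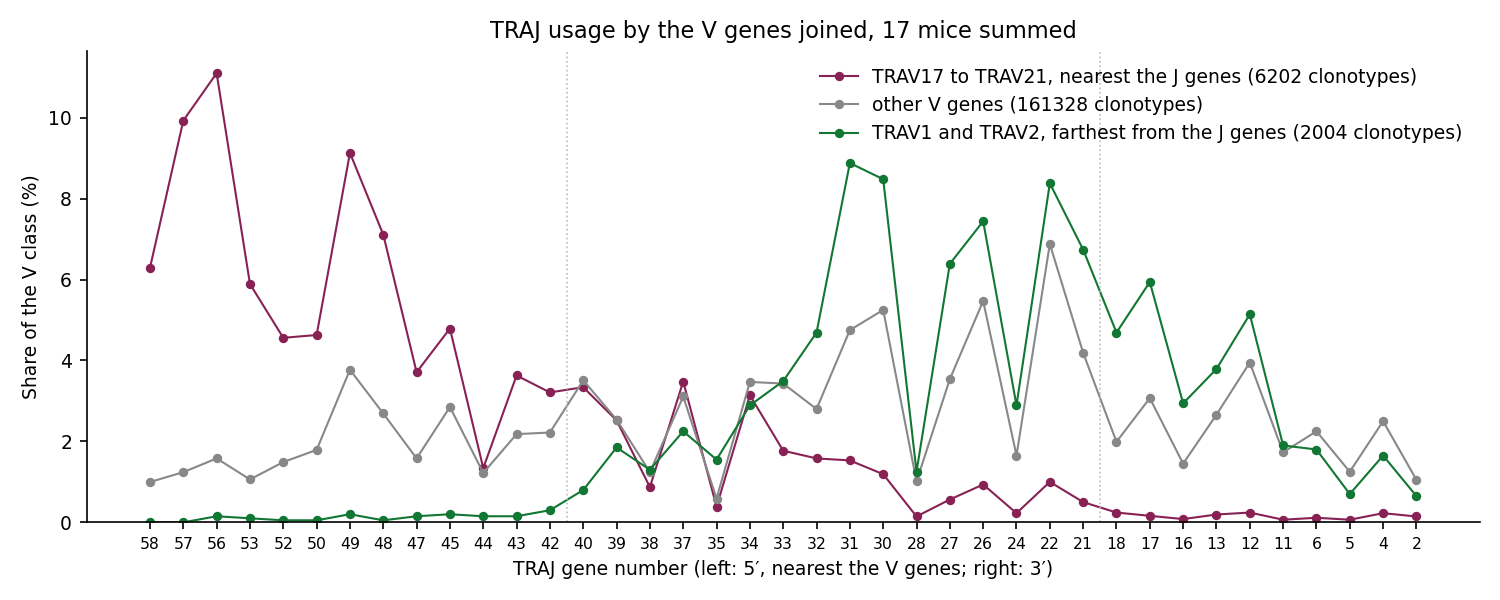
Share (percent, vertical axis) of the member clonotypes of each V class that used each of the 39 TRAJ genes (horizontal axis, in order along the locus), summed over 17 mice. TRAV17 to TRAV21 peak at the 5′ end and TRAV1 and TRAV2 have 1.55% there, while the curves of TRAV1 and TRAV2 and of the other V genes share peaks in the middle part.

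The V subgroups were also read singly, each averaged over mice. Mean TRAJ numbers were 44.94 ± 1.01 for TRAV17, 48.46 ± 1.2 for TRAV19 and 49.35 ± 2.1 for TRAV21 (SD, n = 17 each), against 24.88 ± 1.49 for TRAV1 and 25.42 ± 2.28 for TRAV8. The large subgroups TRAV12 (38882 clonotypes) and TRAV7 (24414 clonotypes) were at 29 ± 0.91 and 28.46 ± 0.759. TRAV5 was at 36.73 ± 1.27, TRAV4 at 32.73 ± 1.39 and TRAV3 at 31.41 ± 1.07, so the means between the extremes did not rise with the V number. Of the 5 least used members, TRAJ58 took 6.29% of the clonotypes with TRAV17 to TRAV21 and 0.996% of those with the other V genes, while TRAJ28, TRAJ35 and TRAJ44 took at most 1.55% in each of the 3 V classes.

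The V-J difference was similar in size in the 4 genotypes, and no comparison of it passed the test. WT mice had 21.88 ± 1.13 (SD, n = 4), β5i-KO mice 21.98 ± 1.34 (n = 5), β5t-KO mice 22.57 ± 1.21 (n = 4) and BIT mice 22.41 ± 2.24 (n = 4), with exact permutation adjusted p of 0.943 in all 6 comparisons. The β5t-KO value rests on few TRAV1 and TRAV2 clonotypes, 2 in replicate 2 and 10 in replicate 4, so the values of those mice are imprecise. The spread between mice was widest in BIT mice, where replicate 4 was at 25.7.

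The V genes taken here as near the J locus were somewhat more used in β5t-KO mice. TRAV17 to TRAV21 made up 4.41%, 5.23%, 4.07% and 4.55% of member clonotypes there, and 2.97% to 3.56% in WT, 3.12% to 4.08% in β5i-KO and 3.14% to 4.01% in BIT mice. The J usage of the remaining V genes was therefore also read without them. Clonotypes with TRDV genes were kept in this reading. Without TRAV17 to TRAV21, TRAJ52 took 1.87%, 3.37%, 1.91% and 1.88% of clonotypes in β5t-KO mice and 0.967%, 0.976%, 1.26% and 1.02% in WT mice. The 5′ part took 24.6% to 30.4% of their member clonotypes in β5t-KO and 21.5% to 24.7% in WT mice, where β5t-KO replicate 4 and WT replicate 3 were nearly equal. The 3′ part took 15.4% to 19.1% and 21.5% to 25.6%. Each mouse was also weighted to the V subgroup usage of all 17 mice together, which was added after seeing the data. The mean TRAJ number was then 31.33 to 32.48 in β5t-KO and 29.59 to 31.1 in WT mice, and the groups differed by 1.44 (exact permutation p = 0.0286, adjusted p = 0.0857).

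TRAJ52 was higher in β5t-KO mice with several V subgroups. Its mean share of the clonotypes of a subgroup, over mice with at least 20 of them, was above the WT mean in 8 of 8 V subgroups examined. These were TRAV3, TRAV6, TRAV7, TRAV12, TRAV13, TRAV14, TRAV16 and TRAV17, chosen by hand without a rule. TRAV4, TRAV5, TRAV8, TRAV9, TRAV10 and TRAV19 held more member clonotypes than TRAV17 and were not examined. With TRAV13 the mean TRAJ52 share was 4.93% ± 1.71 in β5t-KO and 1.98% ± 0.537 in WT mice (SD, n = 4 each). The ranges were 3.18% to 7.14% and 1.64% to 2.78%. With TRAV12 it was 1.82% ± 0.699 and 0.712% ± 0.205 (n = 4 each). With TRAV17, where TRAJ52 is common in all genotypes, it was 13.1% ± 5.31 (n = 3) and 5.8% ± 4.13 (n = 4), with overlapping ranges. The β5t-KO and WT ranges also overlapped with TRAV3, TRAV14 and TRAV16. With TRAV6 the means of β5i-KO (1.65% ± 0.361, n = 5) and BIT mice (1.92% ± 0.0916, n = 4) were above the WT mean as well (0.66% ± 0.496, n = 4), and β5t-KO mice were at 2.68% ± 0.601 (n = 4). The subgroup means have no test and share the TRAJ52 clonotypes of the gene-level comparison.

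The members also differ in what they give the CDR3. The germline stretch that the J gene can supply was 24 to 35 bases long over the 39 members, with a median of 30. It was 28 to 35 bases in the 6 genes that rose in β5t-KO mice, with TRAJ52 at 35, and 26 to 32 bases in the 5 that fell. The mean CDR3 length of clonotypes by member ran from 12.32 residues for TRAJ31 to 15.63 for TRAJ2, with a median of 13.99. It ran from 13.4 to 15.06 in the genes that rose (median 14.5) and from 12.32 to 14.07 in those that fell (median 13.12), so the ranges overlapped. Over the 39 members the log2 fold change of β5t-KO against WT went with CDR3 length at Pearson's r 0.30 (Spearman's rho 0.34), weaker than with position, and length went with position at r 0.08. The share of a member's distinct clonotypes found in more than 1 mouse ran from 9.87% for TRAJ35, the least used, to 26.2% for TRAJ22, the most used, and TRAJ12 was next to it at 26.1%.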

How the data were processed

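TCRα libraries were prepared by the authors from RNA of sorted CD8 T cells with a TCR profiling kit. The protocol gives lymph nodes plus spleens as the source and the tissue labels lymph nodes alone. Clones were called with MiXCR, whose version and settings are not given in the sources used here. The processing notes name the build mm10. For each clone the authors deposited whole-number counts of reads and of unique molecules, without normalisation.

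In-frame clones (no stop or frame break in the CDR3) were reduced to V-J-CDR3 clonotypes, each counted once. The first V gene listed was used, and 0 clones listed more than 1 J gene. Counts per J gene were tested with edgeR 4.0.16 (quasi-likelihood, library size normalisation, all 17 mice in 1 fit, at least 5 clonotypes in at least 4 libraries, Benjamini-Hochberg over 43 genes, threshold 0.05) in R 4.3.3. All 43 genes passed the filter. DESeq2 1.42.0 was an alternative. Per-mouse values were compared with exact permutation tests, two-sided, adjusted over 6 comparisons. SciPy 1.17.1, pandas 2.3.3 and NumPy 2.4.6 under Python 3.11.15 gave the other values, and Matplotlib 3.10.9 the plots.

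The genes named are members called by edgeR (up to 10 per comparison, by p), the 5 most and 5 least used, the outermost ones, and TRAJ18 and TRAJ33. TRAJ13, the 11th called gene of its comparison, and the genes with an unadjusted p under 0.05 beside a count of 0 were named in addition. The members and lists were chosen with earlier results of these data known. On simulated data for β5t-KO against WT, 6.7% to 9.5% of edgeR's calls were false. The mice are separate animals. 0 of 28 pairs of libraries within groups were identical. Alternatives were TMM, DESeq2, no filter, only the groups compared, reads, molecules, at least 2 molecules per clonotype, thinning, nucleotide CDR3, removal of TRAV12, library size of the members, BIT replicate 3 included, the replicate block and each mouse left out.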

Additional observations from a re-analysis of the deposited data

Results flagged for a closer look

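Values far from the others of their group were found in 10 of 96 groups of 4 or 5 values, where chance gives about 1 in 20. Of these, 5 came from BIT replicate 4. Its mean TRAJ number was 29.24, with the next BIT mouse at 31.22, and that of its non-productive clonotypes was 27.73, with the next at 30.03. TRAJ2 took 2.11% of its in-frame clonotypes against 0.651% to 0.729% in the other 3 BIT mice, and TRAJ6 took 2.44% with the next at 1.8%. Its difference in mean TRAJ number between TRAV17 to TRAV21 and TRAV1 and TRAV2 was 25.7, with the next at 21.6.

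TRAJ52 took 1.4% in WT replicate 3, with the next WT mouse at 1.11%. TRAJ17 took 3% in WT replicate 4, with the next at 2.66%, and 1.29% in β5t-KO replicate 2, which had the fewest clonotypes, with the next at 2.05%. TRAJ26 took 3.91% in β5t-KO replicate 4, with the next at 4.75%. TRAJ27 took 2.54% in β5i-KO replicate 2, with the next at 2.92%.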

How the results depend on the processing

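The number of clonotypes, lowest in β5t-KO replicates 2 and 4, limits the precision of each share. The 12 β5t-KO against WT settings that kept all mice gave TRAJ52, TRAJ12, TRAJ57 and TRAJ17 the same call. The count of members called moved by over 1.5 times in these settings: BIT against WT, 2 with thinned molecules; BIT against β5t-KO, 1 with only both groups fitted, 10 with unique molecules and 2 without TRAV12; β5t-KO against β5i-KO, 4 without TRAV12. The cause was not tested. Leaving out 1 mouse gave 6 to 13 members for β5t-KO against WT, 1 to 5 for BIT against β5t-KO and 3 to 10 for β5t-KO against β5i-KO, each lowest without β5t-KO replicate 3.

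The difference in mean TRAJ number between β5t-KO and β5i-KO mice was 1.29 by unique molecules (exact permutation adjusted p = 0.0571) and lost its call. Leaving out 1 mouse gave 1.56 to 2.11 for β5t-KO against WT, 0.215 to 0.761 for β5i-KO against WT, 1.14 to 1.57 for β5t-KO against β5i-KO, 0.115 to 0.967 for BIT against WT and -0.298 to 0.425 for BIT against β5i-KO (highest without BIT replicate 4), and for non-productive clonotypes -0.384 to 0.499 for BIT against WT. With BIT replicate 3 included, BIT against β5i-KO was 0.0675 and BIT against β5t-KO was -1.28.

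Small V-J differences between genotypes changed sign: with thinned molecules to -1.13 for β5t-KO against WT, -1.4 for β5t-KO against β5i-KO and 1.63 for BIT against β5t-KO, and with nucleotide CDR3 to 0.0276 for the last. Leaving out 1 mouse gave -0.356 to 0.526 for β5i-KO against WT, -0.588 to 1 for BIT against WT, -0.682 to 0.91 for BIT against β5i-KO and -1.27 to 0.342 for BIT against β5t-KO.

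The deviations of same-numbered mice had a correlation over 0.1 in 8 of 22 pairs (range -0.15 to 0.64). No correlations of differently numbered mice are given to set beside this count. The highest correlation was that of WT replicate 4 with BIT replicate 4 (0.64), each the mouse of its group with the lowest mean TRAJ number. These correlations cannot tell whether the numbers pair the mice. With the replicate number as a replicate block, β5t-KO differed from β5i-KO mice by 1.33 in mean TRAJ number (exact sign-flip permutation p = 0.125, the smallest that 4 pairs can give, adjusted p = 0.375, so this test could not pass), the V-J difference was -0.139 for β5i-KO against WT, and members called numbered 11 for β5t-KO against WT, 5 for BIT against β5t-KO and 11 for β5t-KO against β5i-KO.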
